A study of Homo sapiens with 12 samples.

Results

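The change in miRNA levels between day 7 and day 14 of culture was examined in Sa/CD99 cells, which are SaOS-2 cells stably transfected with CD99, a cell surface glycoprotein. SaOS-2 is a human osteosarcoma cell line, derived from a tumour of the bone. The clones Sa/CD99wt22 and Sa/CD99wt36, each 1 transfected line selected in neomycin, were hybridised once per day, so that 4 arrays of the 12 miRNA arrays of the series are compared here and the clone pairs the days. The arrays left for comparison hold the same clones at day 0 and parental, non-transfected SaOS-2 cells at days 0, 7 and 14, 2 arrays a group. All groups were kept in osteogenic differentiation medium for the days named, and the transfectants differ from the parental cells in the clone and the neomycin selection as well as in CD99. A miRNA entered the description when both arrays of day 7 or both arrays of day 14 detected it, and this held for 200 of the 851 human miRNA names in the authors' table of normalized log2 values. No gene expression values were used, so that the level of CD99 itself was not checked.

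miRNAs are short RNAs that guide the silencing complex to messenger RNAs, mostly through the seed, bases 2 to 8 of the mature strand, and so lower the output of their targets. In bone-forming cells several of them are known to act on RUNX2, SMAD and collagen transcripts, and members of let-7 are known to restrain RAS, MYC and HMGA2. The opposite strand of a hairpin, written with an asterisk in the names of this array, is usually the less abundant product.

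The table and the scanner arrays assign the samples differently, and every result below rests on the choice made. Over 847 of 847 shared names, each of the 4 table columns matched exactly 1 scanner array in what was detected, and this array is filed under another sample in all 4 cases. The values below follow the column titles of the table, and scanner values are those of the matched arrays. By these titles all 4 arrays lie on 1 slide, so that slide does not coincide with day 7 against day 14 within Sa/CD99. The day 0 arrays of both clones lie on the other slide, so that slide and day 0 cannot be told apart. The summed signal of human miRNAs was 40796 and 40562 at day 7 (clones wt22 and wt36) and 57021 and 62172 at day 14, and between 173 and 214 miRNAs were detected per array, more on both arrays of day 14. Total signal and detected miRNAs thus moved with the day, and their part in the results was not tested. With the labels under which the scanner arrays are filed, limma called 0 of 115 miRNAs, of which 2 had an unadjusted p not above 0.05, and of the 8 miRNAs described first below, the 6 that could be tested there all had a change of the opposite sign.

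The cell type was checked with marker lists. Of 10 mesenchymal miRNAs, 7 were detected on all 4 arrays, with miR-145 and miR-214 among them, while miR-143 and miR-199b-5p were undetected. The summed scanner signal of the 10 was 512 and 377 at day 7 and 394 and 447 at day 14, so that the days overlapped. All 7 epithelial miRNAs, all 3 neural miRNAs and liver miR-122 were undetected, as were 5 of 6 haematopoietic miRNAs and 3 of 4 muscle miRNAs. The one haematopoietic miRNA measured, miR-486-5p, and muscle miR-133b, seen on the arrays of clone wt36 only, had summed signals of at most 10.2 per list and array.

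The sequences that carry the main findings are the 8 miRNAs called between the days, miR-892b, whose change differed from that of SaOS-2, the 3 miRNAs with the largest bound among those detected only at day 14, and 3 members of let-7. They are RefSeq mature sequences on GRCh38.p14, matched by name for 172 of the 200 miRNAs, and the capitals mark the seed.
miR-564: aGGCACGGugucagcaggc
miR-500: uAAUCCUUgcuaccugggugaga
miR-1305: uUUUCAACucuaaugggagaga
miR-149: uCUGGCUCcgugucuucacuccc
miR-181a-2*: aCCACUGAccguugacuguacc
miR-30c: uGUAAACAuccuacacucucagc
miR-224: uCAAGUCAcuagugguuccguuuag
miR-29b-1*: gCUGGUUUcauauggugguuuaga
miR-892b: cACUGGCUccuuucuggguaga
miR-202: aGAGGUAUagggcaugggaa
miR-1299: uUCUGGAAuucugugugaggga
miR-760: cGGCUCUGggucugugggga
let-7a: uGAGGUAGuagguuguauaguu
let-7b: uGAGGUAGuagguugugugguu
miR-98: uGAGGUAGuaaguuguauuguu

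The 8 called miRNAs have 8 different seeds, and none of them carries the let-7 seed. The mature miR-564 lies at chr3:44861903-44861921 on the plus strand within the span of KIF15, miR-500 at chrX:50008443-50008465 on the plus strand within CLCN5, and miR-1305 at chr4:182169343-182169364 on the plus strand within TENM3. Mature miR-149 lies at chr2:240456015-240456037 on the plus strand within GPC1 and GPC1-AS1, and miR-224 at chrX:151958628-151958652 on the minus strand within GABRE. These host genes are those whose RefSeq span covers the miRNA, on either strand, and exons and introns were not separated.

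Between day 7 and day 14, 8 of the 157 miRNAs detected on all 4 arrays changed in Sa/CD99 (5.1%), by limma with p-values adjusted after Benjamini and Hochberg and a threshold of 0.05. The 3 that rose (1.91%) were miR-564, miR-500 and miR-1305, and the 5 that fell (3.18%) were miR-149, miR-181a-2*, miR-30c, miR-224 and miR-29b-1*. The median log2 change of all 157 in the table was -0.54, and 53 of them were above 0 against 104 below. The largest rise and the largest fall below are therefore also given relative to this median. An unadjusted p of at most 0.05 was reached by 63 miRNAs, 40.1% of those tested.

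miR-564, of the KIF15 locus, had table values of -0.31 in clone wt22 and 1.11 in clone wt36 at day 7, and of 3.49 and 4.00 at day 14. Both clones were higher at day 14 and the days did not overlap. The log2 change was 3.34 ± 0.46 (SE), 3.89 above the median change, with an adjusted p of 0.0229 (limma). Neither clone detected miR-564 at day 0, where the arrays detected only 133 (wt22) and 136 (wt36) miRNAs. Its total gene signal on the scanner arrays, a sum over its probes in arbitrary units, was 2.15 and 5.59 at day 7 and 19.04 and 29.02 at day 14.

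miR-500 is encoded in a cluster within CLCN5 together with miR-188, miR-532 and others. Its table values were -0.28 and 0.88 at day 7 and 3.32 in both clones at day 14, a log2 change of 3.02 ± 0.56 (SE) with an adjusted p of 0.0283 (limma). Both arrays of day 14 lay above both of day 7 on the scanner as well, at 18.2 and 20.6 against 2.17 and 4.58. The 3 probes measured on all 4 arrays gave log2 changes between 1.36 and 2.18.

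miR-1305, whose hairpin lies within TENM3, was the called miRNA with the highest values. It stood at 4.77 and 5.09 at day 7 and at 6.80 and 6.52 at day 14. The log2 change was 1.73 ± 0.39 (SE), with an adjusted p of 0.0361 (limma), and 2.03 in clone wt22 and 1.43 in clone wt36. Its signal was 30.5 and 31.7 at day 7 against 137 and 157 at day 14, and its 2 probes measured on all 4 arrays gave log2 changes of 2.09 and 2.38.

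The other miRNAs of small p in the upward direction did not pass the threshold. miR-572 went from 3.24 and 3.45 to 5.12 and 5.00 in the table, with a log2 change of 1.72 and an adjusted p of 0.0691 (limma). miR-198, whose locus lies in FSTL1, had 3.02 and 4.20 at day 7 and 5.49 in both clones at day 14, with a log2 change of 1.89 and an adjusted p of 0.0728 (limma). The days did not overlap for either miRNA, which held for 80.3% of all tested.

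Of the miRNAs that fell, miR-224 had the largest change in the table. miR-224 is known for its high levels in liver cancer. It had 3.27 and 3.29 at day 7 and -0.31 in both clones at day 14, a log2 change of -3.59 ± 0.82 (SE), 3.04 below the median change, with an adjusted p of 0.0361 (limma). On the scanner arrays the fall was smaller, from 11.4 and 11.8 to 4.53 and 6.48.

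miR-30c, a member of the miR-30 family that is known to target RUNX2 and SMAD1 in osteoblasts, had 2.94 in clone wt22 and 1.47 in clone wt36 at day 7. At day 14 the values were -0.15 and -0.996, both below those of day 7, with a log2 change of -2.78 ± 0.58 (SE) and an adjusted p of 0.0283 (limma). The scanner signals were 9.12 and 5.97 at day 7 and 5.15 and 5.27 at day 14, so that clone wt36 differed little between the days.

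miR-149, encoded within GPC1, had 3.32 on both arrays of day 7 and 0.84 and 0.96 at day 14, a log2 change of -2.42 ± 0.43 (SE) with an adjusted p of 0.0229 (limma). Its scanner signal was 12.2 and 11.9 at day 7 and 6.50 and 8.73 at day 14. The clones were alike for this miRNA, at -2.48 and -2.36.

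Both remaining calls were passenger strands. miR-181a-2* had 2.10 and 2.94 at day 7 and -0.18 and -0.12 at day 14, a log2 change of -2.67 ± 0.54 (SE) and an adjusted p of 0.0283 (limma). miR-29b-1*, the opposite strand of a hairpin that gives miR-29b, had 1.42 and 0.12 at day 7 and -1.32 and -0.98 at day 14, a log2 change of -1.91 ± 0.45 (SE) and an adjusted p of 0.0403 (limma). The scanner signals of neither separated the days. That of miR-181a-2* was 7.05 and 9.39 at day 7 and 5.08 and 7.39 at day 14, lower in both clones. That of miR-29b-1* was 5.62 and 3.59 at day 7 and 1.82 and 5.30 at day 14, so that the clones went opposite ways, and of its 2 probes measured on all 4 arrays 1 gave a log2 change above 0.

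**Figure D1:**
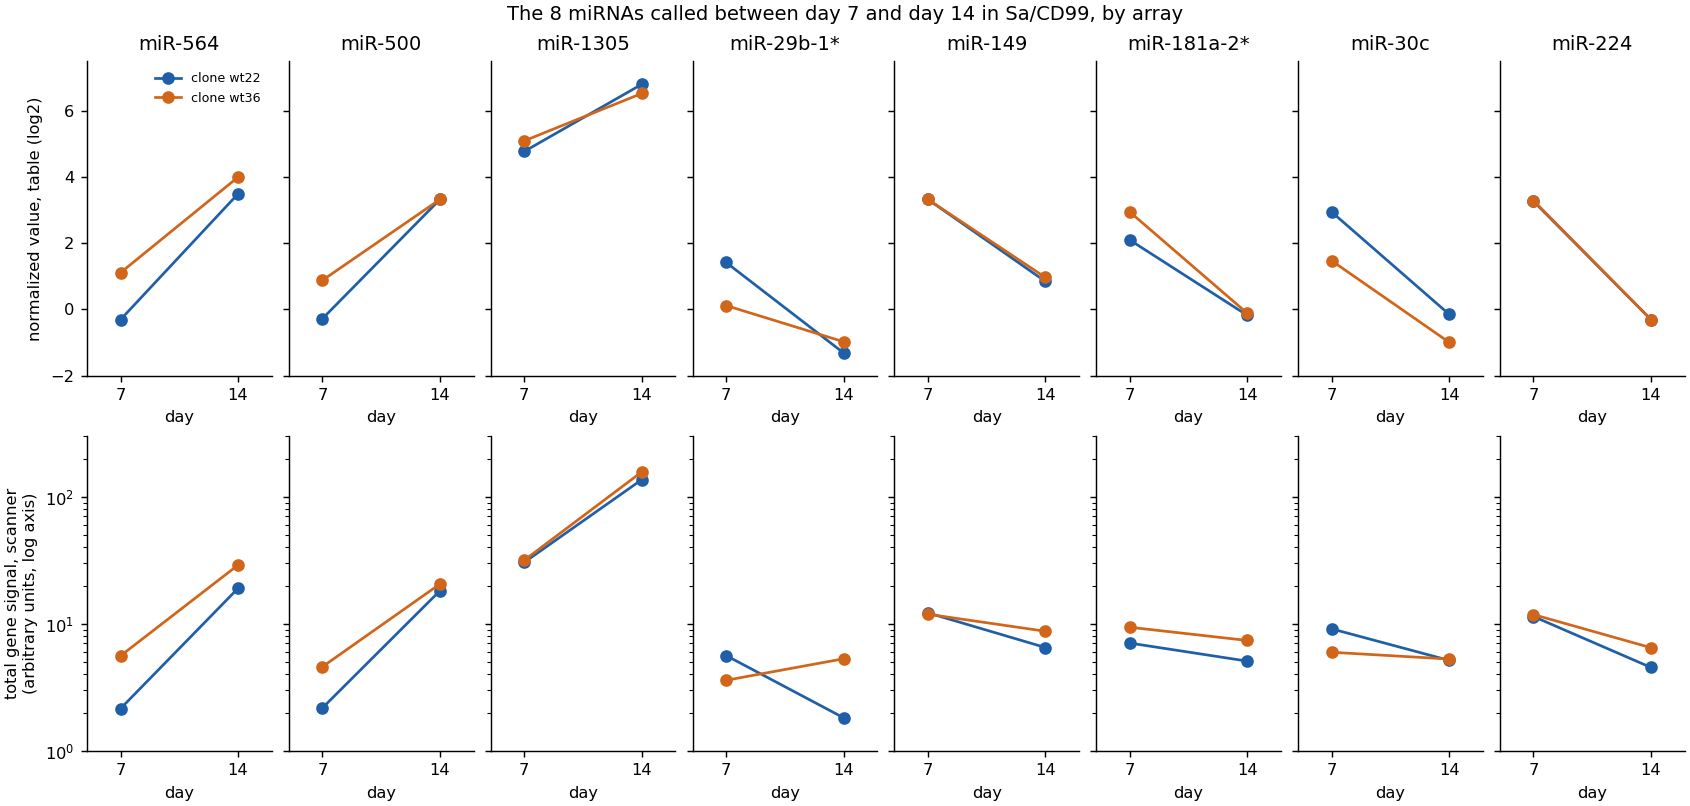
Values of the 8 called miRNAs on each of the 4 Sa/CD99 arrays, with the day on the x axis, clone wt22 in blue and clone wt36 in orange, each point 1 array and each line 1 clone. The upper panels show the normalized log2 value of the table and the lower panels the total gene signal of the matched scanner array on a log axis. The days separate in all 8 upper panels, whereas the signals of miR-29b-1* and miR-181a-2* overlap between the days in the lower panels.

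The called sets depended on the block, on single arrays and on the scaling. With a block for the SaOS-2 replicate numbers as well, limma called 49 of 157, the 8 among them. With any 1 of the 4 Sa/CD99 arrays left out, limma called 0 miRNAs, with between 14 and 31 at an unadjusted p of at most 0.05. With 1 SaOS-2 array left out, which enters only through the shared spread, it called 40 for either array of day 7 and 15 for either of day 14, the 8 among them each time. With the matched scanner signals scaled at the 75th percentile, 2 of 157 were called (1.27%), both higher, and these were miR-1305 and miR-1308, while none of the 5 settings run on the matched scanner arrays called a lower miRNA.

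The table and the scanner differed mostly for miRNAs that were lower in the table. Over the 155 miRNAs with both values, the changes had a correlation of 0.92 across miRNAs, which share arrays and are not replicates. In 120 of the 155 the sign was the same, and the other 35 were all lower in the table and higher by the scanner. The median change was 0.07 by the scanner, which moved the share of miRNAs above 0 from 33.8% in the table to 55.5%. With the percentile scaling, the 3 miRNAs that rose had scanner log2 changes of 2.74, 2.59 and 2.21. The 5 that fell had -0.70, -0.43, -0.53, -1.13 and -0.56 in the order miR-149, miR-181a-2*, miR-30c, miR-224 and miR-29b-1*. With normexp, quantile normalization and median polish of the same arrays, all 8 changes were smaller. They were 0.26 for miR-564, 0.16 for miR-500 and 0.91 for miR-1305, and the falls lay between -0.17 and -0.04. Of the 8, only miR-1305 was called in either of these scanner settings.

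Low values in the table were stretched at day 14. The lowest detected log2 value was -0.71 and -0.38 on the day 7 arrays and -1.61 and -2.57 on those of day 14, although the lowest detected signals were between 1.32 and 1.61 on all 4. In the third of miRNAs with the lowest mean value the median change was -1.14 in the table and 0.06 by the scanner. In the third with the highest mean value it was -0.32 in the table and 0.04 by the scanner. Of the called miRNAs that fell, all had a table value at or below 3.32 on each of the 4 arrays, as did miR-500, which rose, and miR-564 did not exceed 4.00.

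**Figure D2:**
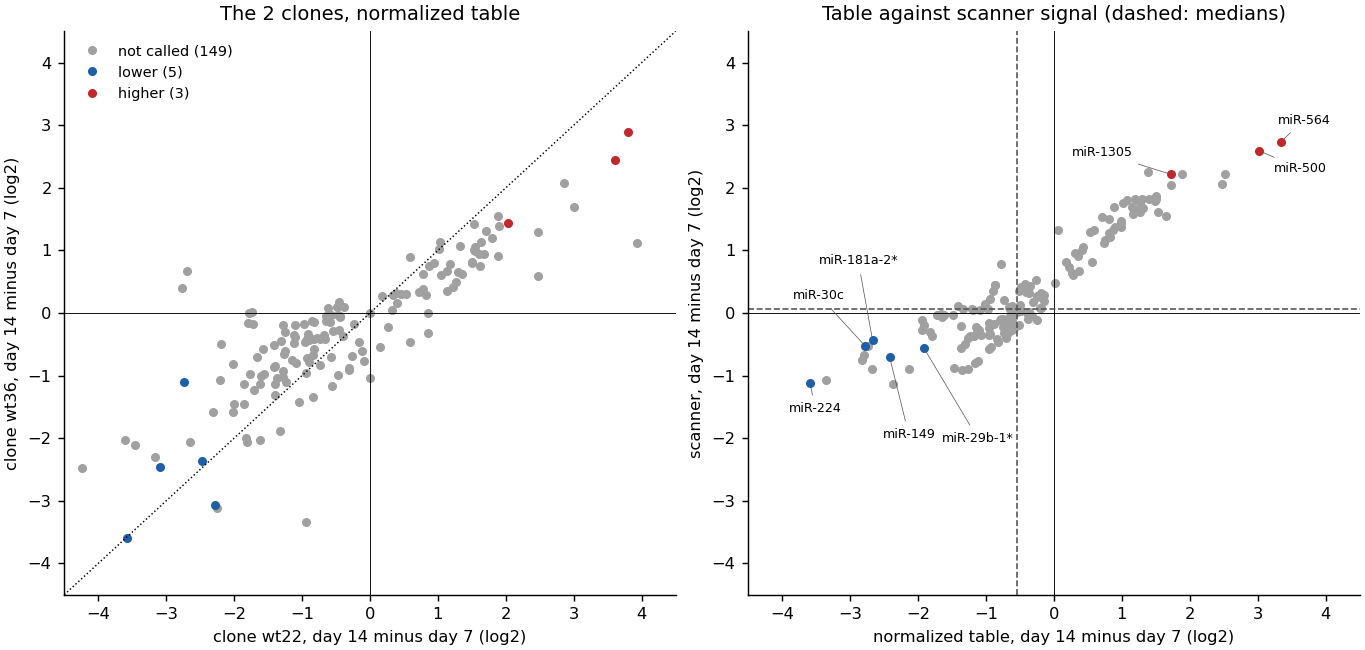
Day 14 minus day 7 of the 157 tested miRNAs, each point 1 miRNA, with called miRNAs in red (higher) and blue (lower). The left panel sets clone wt36 (y axis) against clone wt22 (x axis), both from the log2 table, with a dotted line of equality. The right panel sets the scanner signal scaled at the 75th percentile (y axis, 155 miRNAs) against the table (x axis), with dashed lines at the medians of 0.07 and -0.54, and the lower left of the cloud is flatter than the upper right.

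The changes of the clones were alike in sign for most miRNAs. Of the 157 miRNAs, 48 were higher at day 14 in both clones and 94 were lower in both. The median change was -0.64 in clone wt22 and -0.33 in clone wt36, the median absolute difference between the clones was 0.54, and the correlation of their changes across miRNAs was 0.84. The values of day 14 lay entirely above or below those of day 7 for 126 miRNAs (80.3%), 46 higher (29.3%) and 80 lower (51%). With 1 array per clone and day there is no test within a clone, and nothing in the labels says whether the arrays of SaOS-2 came from separate cultures, so that p-values measure the spread between these arrays.

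Groups of related miRNAs were then described by their counts and medians, without a test. In the let-7 family, all 9 members including miR-98 were tested, 0 were called against 5.1% of all tested, and their log2 changes lay between -1.80 and -0.20 with a median of -0.96, against -0.54 for all 157. In the table all 9 were below 0, as were 104 of all 157, and the days did not overlap for 8, against 80.3% of all 157, but 3 were above 0 with equal medians of the arrays, 2 with quantile normalization over the miRNAs detected on all arrays, 1 by the scanner with a median of -0.28, and 7 with the labels as filed. let-7b had 9.42 and 8.80 at day 7 and 7.66 and 7.83 at day 14, a log2 change of -1.36 with an adjusted p of 0.0985 (limma). let-7a had 9.83 and 9.61 at day 7 against 8.55 and 8.69 at day 14, and an adjusted p of 0.0989 (limma). miR-98, which shares the let-7 seed, had 0.93 and 0.49 at day 7 and -1.09 in both clones at day 14.

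The miR-23/27/24 clusters and the miR-99/100 and miR-125 families were below 0 under each of the 6 scalings with the labels of the table and above 0 with those as filed. miR-23a, miR-27a and miR-24 share a cluster known to act on RUNX2. All 5 members of these clusters were tested and 0 were called, against 5.1% of all tested, with a median log2 change of -1.17 in the table and -0.39 by the scanner, where all 157 had -0.54 and the scanner 0.07. Of the 157, 104 were below 0 in the table. miR-23b had 7.83 and 7.56 at day 7 and 6.27 and 6.59 at day 14, and its signal went from 252 and 211 to 98.8 and 160. Of the miR-99/100 and miR-125 families, 4 were tested and 0 called against the same 5.1%, with a median of -1.04 in the table and -0.38 by the scanner. miR-125b, the homologue of lin-4, had 5.37 and 5.86 at day 7 and 3.65 and 4.63 at day 14, with an adjusted p of 0.0749 (limma).

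The 8 measured guide strands of the miR-17-92 clusters had 0 calls, against 5.1% of all tested, and a median of -0.44 in the table, above the -0.54 of all 157. All 8 were below 0, as were 104 of all 157, whereas 4 of the 8 were above 0 by the scanner and 5 with equal medians. miR-21, an abundant miRNA known to repress PDCD4, had 9.61 and 8.69 at day 7 and 8.80 and 8.55 at day 14, with overlapping days and an adjusted p of 0.538 (limma). miR-222 had 0.96 and 0.89 at day 7 and -0.66 and -1.13 at day 14, and missed the threshold at an adjusted p of 0.0512 (limma). Its scanner signals, 4.82 and 4.71 at day 7 and 4.03 and 3.79 at day 14, lay closer together. miR-15b, of the family known to repress BCL2 and cyclins, had 10.09 and 10.54 at day 7 and 8.69 and 9.42 at day 14, with an adjusted p of 0.0691 (limma).

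Of 12 miRNAs known to target RUNX2, 3 were measured on all 4 arrays and 9 were undetected, and of the 3 only miR-30c was called, against 5.1% of all tested. miR-23a had 7.09 and 6.80 at day 7 and 5.86 and 5.70 at day 14, with an adjusted p of 0.0965 (limma). miR-34c-5p had 0.78 and 1.39 at day 7 and -1.002 and 1.39 at day 14, with overlapping days, and its clone wt36 had the same value on both. The 7 measured mesenchymal miRNAs had 0 calls and a median of -0.95 in the table, against 5.1% and -0.54 over all tested, whereas the scanner gave 0.01 with 4 of 7 above 0. miR-145 had 5.64 and 5.24 at day 7 and 4.24 and 3.93 at day 14, an adjusted p of 0.109 (limma).

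Among the groups with higher values at day 14, the imprinted DLK1-DIO3 cluster had 4 of 46 members measured, 42 undetected and 0 called, against 5.1% of all tested. All 4 were above 0 under the 6 scalings, where 53 of all 157 were above 0 in the table and 86 of 155 by the scanner. Their median was 0.89 in the table and 1.21 by the scanner at the 75th percentile, but 0.096 by the scanner with normexp and median polish. The 1 member measured with the labels as filed was below 0. miR-134 had 5.05 and 5.49 at day 7 and 6.85 and 6.69 at day 14, with an adjusted p of 0.088 (limma). miR-370 had 1.39 and 2.91 at day 7 and 3.86 and 3.49 at day 14, with an adjusted p of 0.154 (limma).

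Mirtrons, which bypass Drosha because splicing releases their hairpins, had 9 measured members and 0 calls, against 5.1% of all tested. By the table, 4 were above 0 and 5 below, with a median of -0.19, where 53 of all 157 were above 0 and the median was -0.54. By the scanner 8 were above 0 with a median of 0.45, where 86 of all 155 were above 0 and the median was 0.07. miR-1226* had -0.15 and 2.39 at day 7 and 3.78 and 3.52 at day 14, and miR-877 had 0.13 and 1.02 at day 7 and 2.98 and 3.11 at day 14. Their adjusted p-values were 0.0989 and 0.0888 (limma). The days did not overlap for 7 of the 9 mirtrons, these 2 among them, against 80.3% of all tested.

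In the CLCN5 cluster, 4 of the 13 members on the array were measured on all 4 arrays, 7 were undetected and only miR-500 was called, against 5.1% of all tested. By the table, 2 of the 4 were above 0, against 53 of all 157, and by the scanner 3 were, against 86 of all 155. miR-188-5p had a log2 change of 0.41 and miR-362-5p of -1.34 in the table, and neither passed the threshold. miR-532-3p had 2.81 and 2.12 at day 7 and -0.35 and -0.18 at day 14, a log2 change of -2.73 with an adjusted p of 0.0749 (limma). The scanner signal of miR-532-3p was 8.50 and 7.08 at day 7 and 4.40 and 6.88 at day 14, a smaller difference.

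The miRNAs that the study named from these arrays were not chosen independently of them, and 2 of the 17 measured were called, miR-500 and miR-1305, against 5.1% of all tested. Of the 22, 4 were detected only at day 14. By the table, 10 of the 17 were above 0 with a median of 0.35, where 53 of all 157 were above 0 and the median was -0.54. By the scanner 13 were, against 86 of all 155, while with the labels as filed 2 of 5 were. miR-34a, a miRNA induced by p53, had 3.49 and 3.14 at day 7 and 2.85 and 3.09 at day 14, a log2 change of -0.35 with an adjusted p of 0.739 (limma) and a scanner change of 0.43. miR-425* had 2.79 and 3.20 at day 7 and -0.68 and 1.09 at day 14, and an adjusted p of 0.0512 (limma).

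**Figure D3:**
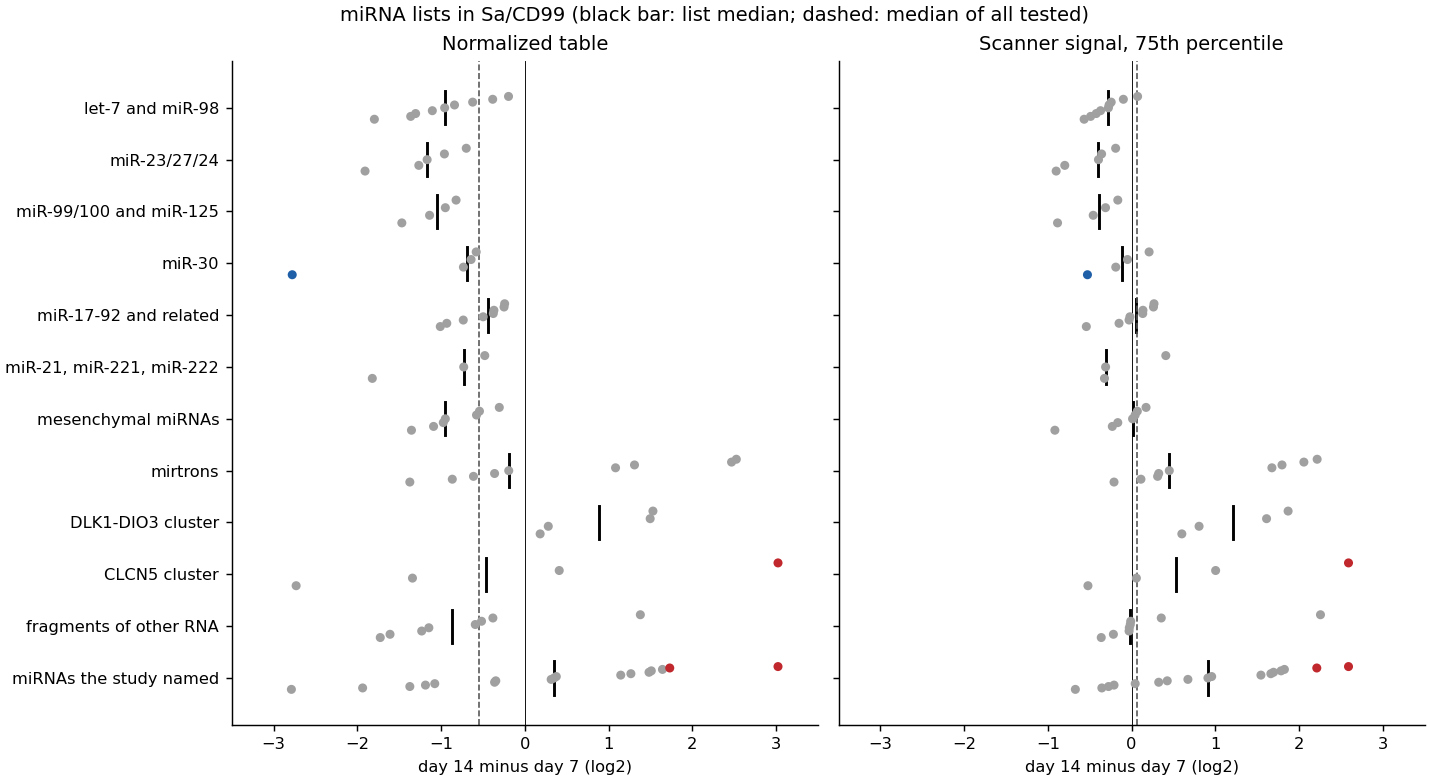
Day 14 minus day 7 (log2, x axis) of the measured members of 12 lists (y axis), each point 1 miRNA, red for called higher and blue for called lower in the table. The left panel holds the table and the right panel the scanner signal scaled at the 75th percentile, with a black bar at the median of each list and a dashed line at the median of all tested miRNAs. The let-7, miR-23/27/24 and miR-99/100 and miR-125 lists lie left of the dashed line by their medians in both panels, and the DLK1-DIO3 members lie right of it, an order that holds for the labels of the table only.

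Among the 10 miRNAs with the highest mean in the table were entries that derive from other RNAs. miR-923_v12.0, a withdrawn entry that matches ribosomal RNA, held the top value of 14.99 on all 4 arrays. miR-1308, also withdrawn, had 8.46 and 9.42 at day 7 and 10.09 and 10.54 at day 14, with an adjusted p of 0.0988 in the table and 0.0466 by the scanner (limma), between 0.00171 and 0.834 over the 24 alternatives. Its signal was 349 and 610 at day 7 and 1724 and 2919 at day 14. miR-1202 had signals of 261 and 392 at day 7 and 924 and 1431 at day 14, and a table change of 1.20. Of the 8 measured entries from other RNA, 0 were called and the median change was -0.87, where all 157 had 5.1% called and -0.54. In the table, 53 of the 157 were above 0 and 1 of these entries was, against 4 with equal medians and 3 of 9 by the scanner.

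Of the 200 miRNAs, 28 were detected on both arrays of day 14 and on neither of day 7, and 2 were detected on both arrays of day 7 and on neither of day 14. A further 9 were missing on 1 array of day 7 and 4 on 1 array of day 14. The 28 had low signals, between 1.38 and 16.7, and together held 0.367% of the human signal in clone wt22 and 0.348% in clone wt36. None of the 28 was detected at day 0 in either clone. The day 0 arrays of clones wt22 and wt36, on the other slide, had summed human signals of only 9061 and 8523. They detected 133 and 136 miRNAs, so that non-detection of weak miRNAs at day 0 does not show absence. In SaOS-2, 13 of them were detected on both arrays of day 14 and 7 on 1, and at day 7, 1 was detected on both arrays and 22 on 1. The SaOS-2 arrays of day 7 were unlike, with summed human signals of 25162 for replicate 1 and 56491 for replicate 2. They detected 158 and 229 miRNAs. At day 7, miR-202, miR-1299, miR-760, miR-1182 and miR-557 were seen on replicate 2 only. The part of total signal in this detection was not tested.

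For these miRNAs only a bound can be given, the mean at day 14 against the lowest detected signal of each day 7 array on the scale of the scanner at the 75th percentile. Bounds lay between 1.02 and 11.2 with a median of 4.96. Taken on the scale of the table instead, the median was 2.14 and 9 of the 28 were under 1, which bounds no fold. miR-202, whose seed is not that of let-7, had signals of 16.01 and 16.7 at day 14 and was at least 11.2-fold higher. miR-1299 had 16.5 and 15.1 and was at least 10.8-fold higher, and miR-760, of the BCAR3 locus, had 14.3 and 14.1 and was at least 9.71-fold higher. miR-1182 was at least 7.72-fold and miR-557 at least 7.70-fold higher.

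On the scanner scale of these bounds, the passenger strand miR-125b-2* was at least 6.59-fold higher at day 14. The guide miR-125b, in contrast, was lower in the table on both arrays of day 14 than on those of day 7. miR-516a-5p, of the chromosome 19 cluster, had a signal of 6.78 and 6.77 at day 14. The 2 miRNAs detected only at day 7 were miR-129*, with signals of 3.88 and 5.15 and at least 3.12-fold lower at day 14, and miR-423-3p, with 1.74 and 1.44 and at least 1.11-fold lower.

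**Figure D4:**
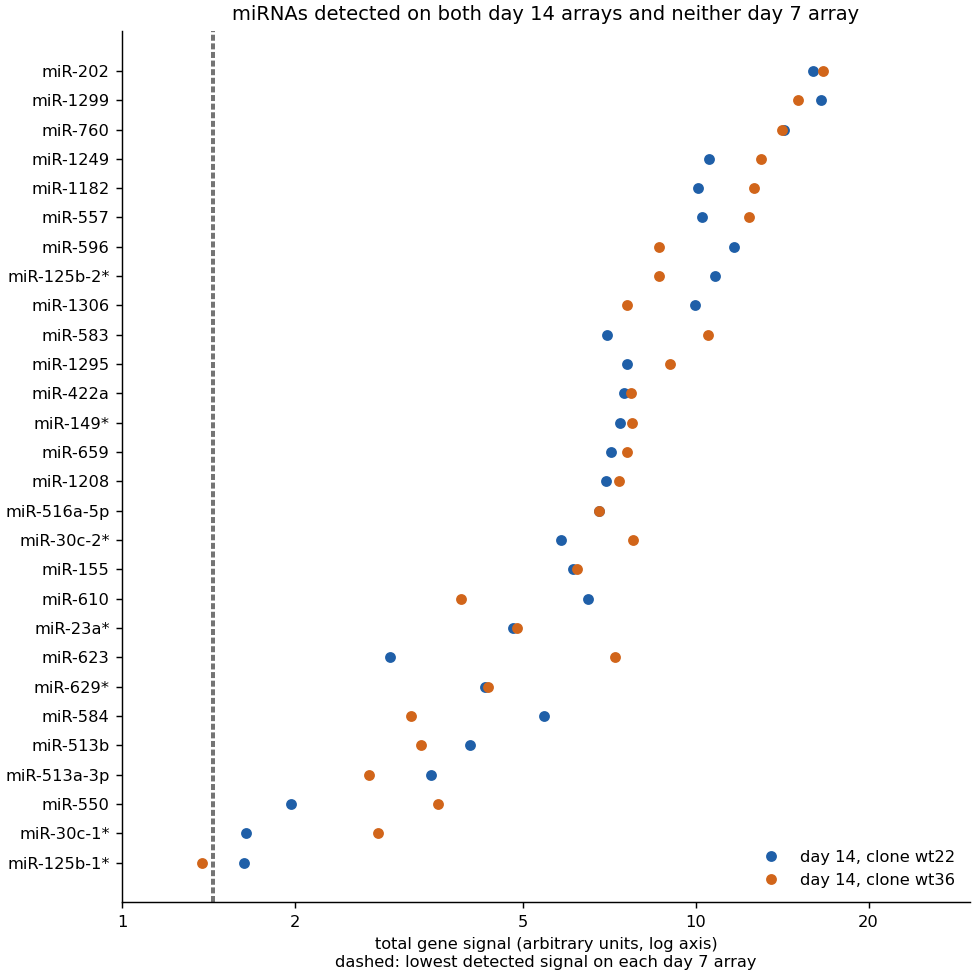
Total gene signal (x axis, log scale, arbitrary units) of the 28 miRNAs detected on both day 14 arrays and on neither day 7 array, ordered by their bound, with clone wt22 in blue and clone wt36 in orange. The dashed lines mark the lowest detected signal of each day 7 array. The topmost, miR-202, lies at 16.01 and 16.7, and the lowest, miR-125b-1*, lies on either side of the lines.

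The change in Sa/CD99 was then compared with that of the parental SaOS-2 cells over the same days. In limma, 3 of the 144 miRNAs detected on all 8 arrays differed (2.08%), and all 3 were higher at day 14 in Sa/CD99 and lower in SaOS-2, by the fitted changes. The change of miR-1305 was 1.73 in Sa/CD99 and -0.90 in SaOS-2, a difference of 2.63 ± 0.55 (SE) with an adjusted p of 0.0483 (limma). The table values of miR-1305 in SaOS-2 were 5.70 and 5.93 at day 7 and 5.19 and 4.63 at day 14. At day 14 both Sa/CD99 clones lay above both SaOS-2 arrays, and at day 7 below them.

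miR-892b lies in a cluster on the X chromosome. Its values in Sa/CD99 were 2.77 and 2.85 at day 7 and 4.31 and 4.28 at day 14, a change of 1.48 that was not called on its own (adjusted p of 0.0754, limma). In SaOS-2 they were 4.20 and 4.15 at day 7 and 2.91 and 2.05 at day 14, a change of -1.70. The difference was 3.18 ± 0.62 (SE) with an adjusted p of 0.0483 (limma). miR-500 had a change of 3.02 in Sa/CD99 and -0.96 in SaOS-2, a difference of 3.98 ± 0.78 (SE) with the same adjusted p of 0.0483 (limma). With a block for the replicate numbers of both cell types, miR-1305 and miR-892b kept the call, miR-500 lost it and miR-425* was called. miR-425* and miR-1469 followed, with differences of -4.17 and 3.01 and adjusted p-values of 0.0773 and 0.087 (limma).

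By the titles of the table the SaOS-2 arrays of day 7 lie on the other slide from the remaining 6 arrays of this comparison, so that slide and the SaOS-2 change cannot be told apart. By the scanner signals at the 75th percentile only miR-1305 was called. Leaving out any of the 4 Sa/CD99 arrays, or SaOS-2 replicate 2 of day 7 or of day 14, left none of the 3 called.

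**Figure D5:**
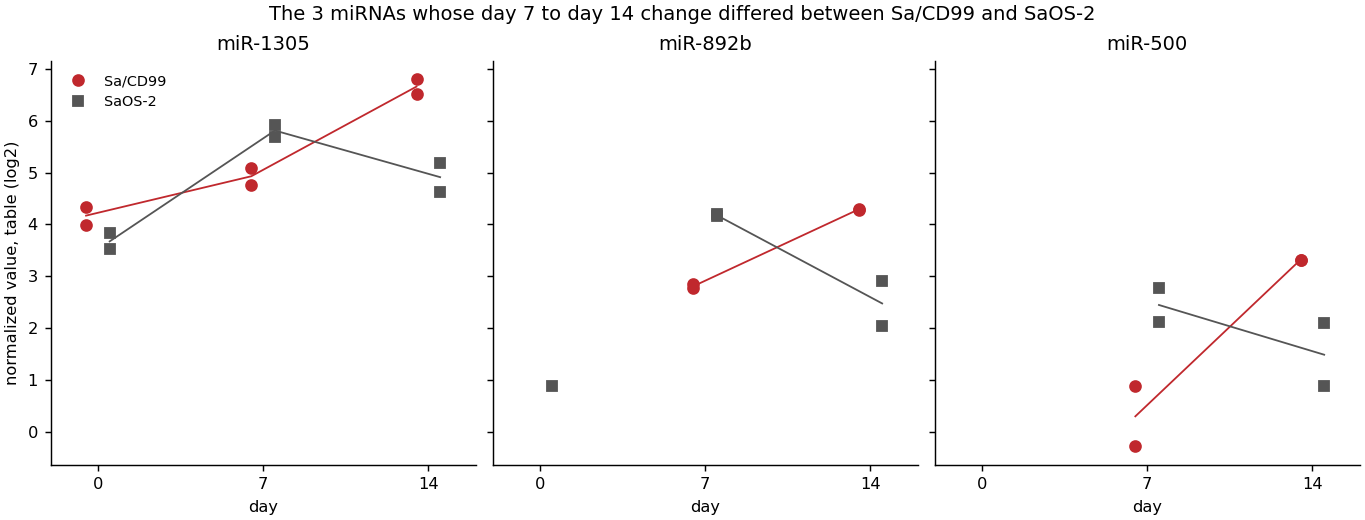
Table values (log2, y axis) of miR-1305, miR-892b and miR-500 at days 0, 7 and 14 (x axis) in Sa/CD99 (red circles) and SaOS-2 (grey squares), each point 1 array, lines joining the means of days where both arrays detected the miRNA. Undetected arrays have no point. In each panel both Sa/CD99 points lie below the SaOS-2 points at day 7 and above them at day 14.

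Probes for 1 miRNA were compared on the same arrays. For 135 tested miRNAs with at least 2 probes measured on all 4 arrays, the median range of the probes' log2 changes was 0.15, and in 120 the probes had 1 sign. Of the called miRNAs, the 3 such probes of miR-564 gave between 1.82 and 2.14. The widest range, 1.39, was that of miR-892b, whose 4 such probes gave between 1.32 and 2.70.

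The composition of the mature sequence was set beside the change. Of the 157 tested miRNAs, 132 (84.1%) had a RefSeq sequence. The median GC content was 63.6% in the 43 that were higher in the table and 50% in the 89 that were lower, and by the scanner it was 59.1% and 50%. The rank correlation of GC content and change across these miRNAs was 0.31 in the table and 0.32 by the scanner. Of the 18 seeds held by at least 2 measured miRNAs, 46 miRNAs in all, 17 had members on 1 side of 0 only in the table, where 104 of 157 miRNAs were below 0.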

How the data were processed

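miRNA levels were measured on 12 one-colour Agilent arrays, 2 per group. The authors deposited a table of normalized log2 values, which GEO's processing notes credit to RMA, and the scanner intensity of each spot with total gene signals from Feature Extraction. The log2 values matched quantile-normalized log2 total gene signals within 0.198 over 2096 detected values. No gene was thus centred, and within an array a higher value meant a higher signal. Changes between arrays could differ from those of the scanner, and 35 of 155 miRNAs were lower in the table and higher by the scanner. Column medians of detected values were 3.95, 4.04, 3.55 and 3.22 for the 4 arrays. A value at a column's minimum was taken as undetected and treated as missing. Arrays were assigned by the titles of the table, and each column was matched to the scanner array with identical detected miRNAs, 847 of 847 names, the next best sharing at most 826. Of the table's names, 4 have no scanner counterpart.

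limma 3.58.1 on R 4.3.3 fitted all 12 arrays with 6 groups and the clone as a block in Sa/CD99, and miRNAs detected on all 4 Sa/CD99 arrays of days 7 and 14 were tested. The clones are the same lines on both days, and same-numbered arrays deviated together, with correlations of 0.445, 0.447 and 0.267 between days 0 and 7, 0 and 14, and 7 and 14. SaOS-2 replicates of the same number correlated at 0.423, 0.646 and 0.365, but their labels give only a number, so that their block was an alternative. The difference from SaOS-2 was an interaction term in the same model. A miRNA was called where its p-value, adjusted after Benjamini and Hochberg over all tested, did not exceed 0.05. The script was tested on simulated data. The number of arrays limits the precision. The alternatives changed the block, the arrays, the scaling, the filter, the threshold and the source of the values.

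The members and lists were chosen with earlier results of these data known. The miRNAs named are the called ones or the 5 of smallest p in a direction with fewer than 5 calls, the 10 of highest mean value, those the study named, the 2 largest changes in each list, up to 10 detected at 1 day only per direction, and the 5 of smallest p in the difference from SaOS-2. The study's arrays of messenger RNA were not used here.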

Additional observations from a re-analysis of the deposited data

Results flagged for a closer look

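For 3 miRNAs the change from day 7 to day 14 in Sa/CD99 differed from that in SaOS-2 by a test of the difference itself, with an adjusted p of 0.0483 each (limma). The difference on the log2 scale was 2.63 for miR-1305, 3.18 for miR-892b and 3.98 for miR-500. For all 3, both Sa/CD99 arrays of day 14 lay above both of day 7, and both SaOS-2 arrays of day 14 lay below both of day 7. The 3 were picked by this difference on the same arrays, so that the separation adds no support. In Sa/CD99 the days did not overlap for 80.3% of the 157 miRNAs tested. With a block for the replicate numbers of both cell types, miR-500 was not called. By either scanner setting only miR-1305 was called, and with any one Sa/CD99 array left out none of the 3 was. Slide and the SaOS-2 change cannot be told apart. The margin was smallest for miR-500 in SaOS-2, with 2.12 and 2.77 at day 7 and 2.10 and 0.88 at day 14.

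The arrays also hold 88 viral miRNA names, which no comparison above uses. On the Sa/CD99 arrays of day 14, 11 of them were detected in clone wt22 and 10 in clone wt36, against 6 and 5 at day 7 and 2 and 3 at day 0. Their summed signals were 952 and 1049 at day 14 and 331 and 403 at day 7. Parental SaOS-2 had 12 and 8 detected at day 14, 6 and 9 at day 7 and 2 and 1 at day 0, with signals of 168 and 834 at day 7 and 704 and 946 at day 14. Replicate 2 of SaOS-2 thus had more detected at day 7 than at day 14.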

How the results depend on the processing

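Against the 8 calls reported, limma called 14 without the replicate block, 49 with a replicate block of both cell types, 34 of 219 with undetected values kept at the floor, 67 in a fit of only the 4 arrays, 87 with the 6 Sa/CD99 arrays, 31 with a trend of the spread on the level and 20 at the study's own threshold on the unadjusted p and the fold. All 8 remained with either form of the block and in the fits of 4 and of 6 arrays. Equal medians called 3, all higher, and quantile normalization over the miRNAs detected on all arrays called 0. The matched scanner arrays called 2 at the 75th percentile and 1 with normexp and median polish, those as filed 0, and a filter of at least 1 array of each day 0. An unadjusted p of at most 0.05 was reached by 44 miRNAs in this quantile setting, 2 as filed and 63 with that filter. Leaving out 1 array in turn gave between 0 and 40 calls, 0 when any one Sa/CD99 array was left out, 40 without either SaOS-2 array of day 7 and 15 without either of day 14. Chosen after seeing the data, the scanner arrays gave 27 calls with no replicate block, 2 with a trend and 0 with no scaling, where 31 reached an unadjusted p of at most 0.05.

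The median change of -0.54 became 0.11 with equal medians, 0.29 with quantile normalization over the miRNAs detected on all arrays, 0.072 and -0.047 with the matched scanner arrays at the 75th percentile and with normexp, and 0.29 as filed. With 1 array left out it lay between -0.62 and -0.34. The 3 calls of the difference from SaOS-2 became 6 at the floor, of which only miR-500 was shared, 6 at the study's threshold, 1 with each scanner setting, 0 among the 100 miRNAs detected on all 12 arrays (5 with an unadjusted p not above 0.05), and between 0 and 12 with 1 array left out. With the replicate block the 3 calls became 3 with the block of both cell types, of which 2 were shared. The 30 miRNAs detected at 1 day only were again 30 by the scanner's detection flag and 43 with at most 1 array of the other day.

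Of the 8 called miRNAs, 6 changed direction with the arrays as filed, miR-1305 to -1.44, miR-149 to 0.98, miR-181a-2* to 0.56, miR-224 to 0.57, miR-29b-1* to 0.63 and miR-30c to 0.063, and miR-29b-1* to 0.14 with quantile normalization over the miRNAs detected on all arrays. Over the alternatives planned for single miRNAs, which leave out the trend, the filters and those added later, the 8 had 142 values, of which 76 kept the call, 59 kept the direction only and 7 were the reversals above. The cause of these changes was not tested.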
